A study of Mus musculus with 6 samples.

Results

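The transcripts described here encode actin, the β-thymosins and regulators of the actin skeleton. They were a list of 9 mouse genes given by Ensembl ID: Tmsb4x (ENSMUSG00000049775), Tmsb10 (ENSMUSG00000079523), Actb (ENSMUSG00000029580), Actg1 (ENSMUSG00000062825), Cfl1 (ENSMUSG00000056201), Pfn1 (ENSMUSG00000018293), Coro1a (ENSMUSG00000030707), Arhgdib (ENSMUSG00000030220) and Rac2 (ENSMUSG00000033220). Of the 9 IDs, 8 had linked tags in each of the 6 libraries, out of 7282 gene IDs with a linked tag in the series. The ID of Actg1, which encodes γ-actin, was linked to no tag in any library, so nothing is reported for it. The deposited files do not pair Ensembl IDs with names, and the symbols are those given with the list.

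Poly(A) tails were measured by mTAIL-seq, in which a hairpin adaptor is ligated to the 3′ end of total RNA so that each sequenced tag carries the end of 1 transcript and its tail. The cells were naive CD4 T cells of mice, sorted as TCRb+, CD4+, CD25-, CD62L-high and CD44-low. WT libraries (3) came from littermate controls with floxed Btg1 and Btg2 alleles (Btg1f/f Btg2f/f), and DKO libraries (3) from Btg1f/f Btg2f/f mice that also carried CD4-Cre, so that both groups had the floxed alleles and the deletion was limited to cells in which the CD4 promoter had driven Cre. The labels used here state no age. They speak of 2 pairs of mice for 3 libraries per genotype, so p-values measure how libraries vary, which may in part be technical variation. Neither the T cell markers nor Btg1 and Btg2 were checked in these files, for want of gene names.

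T cells hold a large pool of actin, of which much is kept as monomer. The β-thymosins and profilin bind monomeric actin, cofilin cuts filaments, coronin 1A binds filaments, and the small GTPase Rac2 and the GDP dissociation inhibitor encoded by Arhgdib set where new filaments form when the cell migrates or meets an antigen-presenting cell. BTG1 and BTG2, the proteins missing in DKO cells, bind the CCR4-NOT deadenylase, which shortens poly(A) tails, and the series asked whether they destabilise mRNA in resting T cells.

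What was read for a tag is shown by 7 tails with added uridines, out of the 12 on these transcripts whose bases were listed in full. They were picked to cover the 4 transcripts and the range of lengths, and 1 of the 3 tails that held bases other than A is among them. The tail is in lower case, 5′ to 3′, and the added bases are in capitals (T stands for U).
Coro1a in WT replicate 3: aaaaaaaaaaaaaaTT
Arhgdib in WT replicate 2: aaaaaaaaaaaaaaaaaaT
Actb in DKO replicate 2: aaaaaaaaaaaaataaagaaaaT
Tmsb4x in DKO replicate 2: aaaaaaaaaaaaaaaaaaaaaaaaaaaaT
Arhgdib in DKO replicate 1: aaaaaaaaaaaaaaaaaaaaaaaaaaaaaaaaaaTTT
Tmsb4x in WT replicate 3: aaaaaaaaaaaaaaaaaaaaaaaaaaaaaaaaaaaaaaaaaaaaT
Tmsb4x in DKO replicate 1: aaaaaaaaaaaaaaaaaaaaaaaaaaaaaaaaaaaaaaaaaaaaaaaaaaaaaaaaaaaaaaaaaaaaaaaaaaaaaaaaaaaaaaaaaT
These tails measured 14, 18, 22, 28, 34, 44 and 89 nt.

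The WT libraries held 16953, 11386 and 7177 tags that had a gene ID and a tail of 5 nt or longer, and the DKO libraries 20674, 24024 and 3943. The 8 transcripts accounted for 954, 516 and 164 of these in WT, against 981, 1031 and 121 in DKO, or 2.29% to 5.63% per library. None of their tags was shared with another gene ID. The replicates numbered 3 of both genotypes stood apart. In them, 32.3% and 35.3% of mapped tags had a tail under 5 nt or no listed length, against 7.95% to 9.94% in the other 4. At 0 nt alone the shares were 29.6% and 31.7%, against 6.69% to 8.24%. The mean tails of the replicates numbered 3 were also the shortest. The values below are therefore given for numbers 1 and 2 and for number 3 as well.

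Arhgdib was the most deeply sampled of these transcripts, with 610, 320 and 44 tailed tags in WT, compared with 525, 509 and 47 in DKO, and ranked between 4 and 19 among all gene IDs by tags in a library. Its mean tail was 83.5, 75.4 and 51.1 nt in WT, against 82.9, 87.3 and 61.7 nt in DKO. The genotypes overlapped, and replicate 3 was the lowest of each. The group means were 70.0 nt ± 16.9 (SD, n = 3) and 77.3 nt ± 13.7 (SD, n = 3), a log2 change of 0.16 (SE 0.22, limma adjusted p = 0.86). The median tail of Arhgdib was 72.5, 67 and 50 nt in WT, compared with 77, 81 and 59 nt in DKO. The groups overlapped, and the median was higher in DKO in 3 of 3 same-numbered pairs. In limma on medians the log2 change was 0.20 (SE 0.19, adjusted p = 0.74), with 40 of the 44 gene IDs tested higher in DKO.

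Rac2, a small GTPase of blood cells that the Arhgdib product can hold in the cytosol, had means of 88.7, 79.5 and 51.0 nt in WT, against 72.6, 89.5 and 58.0 nt in DKO. In replicate 3 these rest on 3 WT and 2 DKO tags, too few for the fit across gene IDs. The group means of 73.1 nt ± 19.7 (SD, n = 3) and 73.4 nt ± 15.8 (SD, n = 3) differed by far less than the spread between libraries.

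Tmsb4x encodes thymosin β4, the main actin-sequestering peptide of many cell types. Its mean tail was 66.2, 70.1 and 48.4 nt in WT, compared with 72.6, 88.3 and 47.7 nt in DKO, from 70, 40 and 60 tags and from 128, 117 and 21 tags. Replicates 1 and 2 of DKO lay above all WT libraries and replicate 3 lay below them. The log2 change was 0.15 (SE 0.25, limma adjusted p = 0.86), and the difference was 12.3 nt within numbers 1 and 2 and -0.683 nt within number 3. Medians differed more between the genotypes than means did, at 45.5, 52.5 and 42.5 nt in WT, against 66, 75 and 50 nt in DKO. They still overlapped, as DKO replicate 3 lay below WT replicate 2. In limma on medians the log2 change was 0.43 (SE 0.17, adjusted p = 0.53). In that fit 40 of the 44 gene IDs tested were higher in DKO. The WT distributions in numbers 1 and 2 were wide, with quartiles of 30 and 107.75 nt in replicate 1 and of 31.25 and 96.25 nt in replicate 2. The plot of cumulative tail lengths shows this spread.

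**Figure D1:**
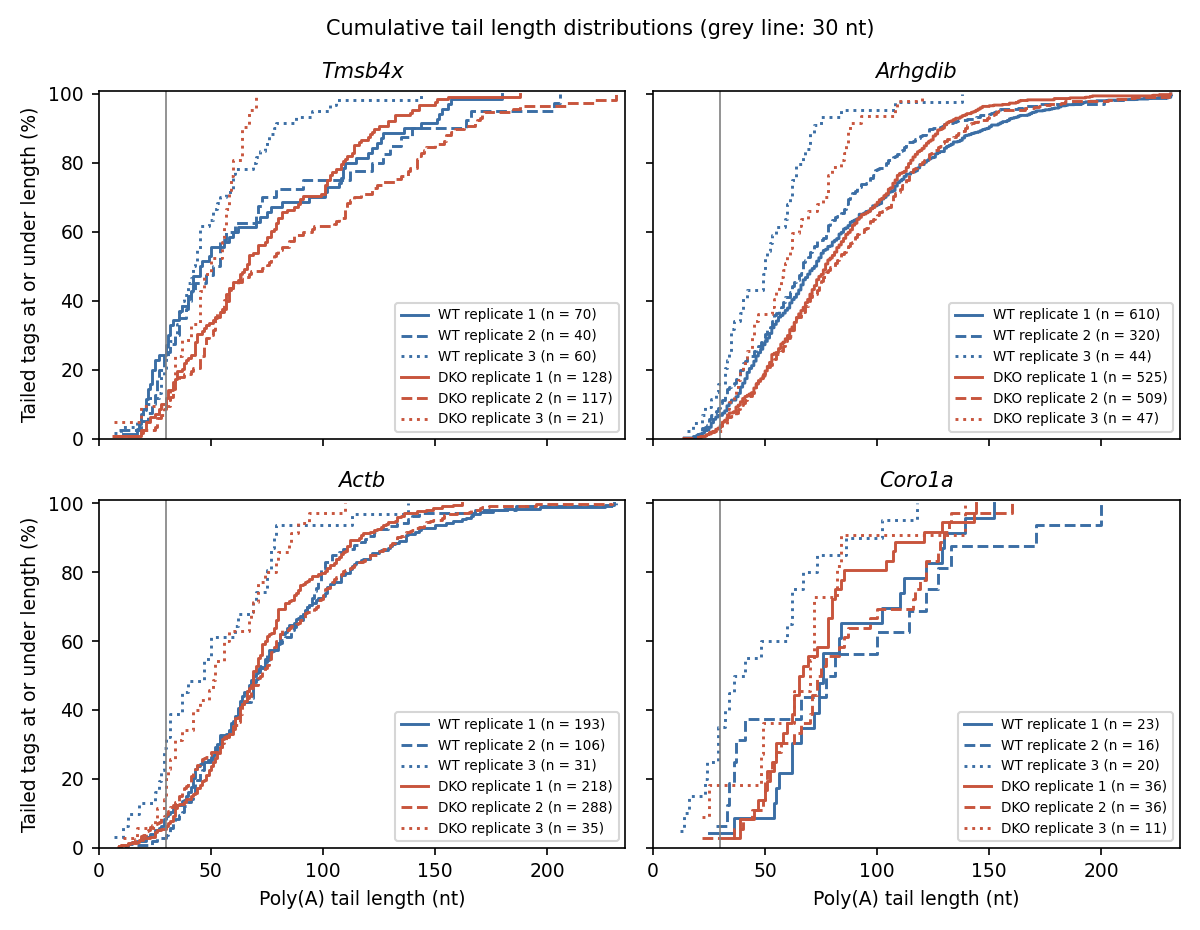
Cumulative share of tailed tags (%, y axis) at or under each tail length (nt, x axis) for Tmsb4x, Arhgdib, Actb and Coro1a, with 1 line per library (WT blue, DKO red; solid, dashed and dotted for replicates 1, 2 and 3) and a grey line at 30 nt. The DKO lines of Tmsb4x and Arhgdib lie under the same-numbered WT lines at 30 nt, those of Actb in numbers 1 and 2 run close together, and replicate 3 reaches 100% at shorter lengths.

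Tmsb10, the related thymosin β10, gave 4, 5 and 3 tailed tags in WT, compared with 11, 15 and 2 in DKO. Its means of 42.5, 98.6 and 34.0 nt and of 89, 80.9 and 105.5 nt overlapped, and their standard errors over tags ran from 5.51 to 19.5 nt.

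Pfn1 encodes profilin 1, which delivers actin monomers to growing filament ends, and had the shortest tails of the 8. Its means were 40.5, 57.5 and 23.0 nt in WT, against 41.8, 54.5 and 33.5 nt in DKO, from 8, 8 and 3 tags and from 19, 19 and 2 tags. Within numbers 1 and 2 the genotypes were close. Pfn1 tails were shorter on average than those of Actb, Arhgdib, Coro1a, Rac2, Tmsb4x and Tmsb10 in 6 of 6 libraries, and than those of Cfl1 in the 5 of 5 libraries that had a tailed Cfl1 tag. The difference to Arhgdib was -31.8 nt ± 9.32 (SD over 6 libraries) and Tmsb4x tails were longer than those of Pfn1 by 23.8 nt ± 8.64 (SD over 6 libraries).

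Actb, the gene of β-actin, had means of 78.8, 76.5 and 50.4 nt in WT, compared with 72.6, 77.7 and 53.8 nt in DKO. Replicate 3 was the lowest of both genotypes and the other 4 libraries lay close together. The group means of 68.6 nt ± 15.8 (SD, n = 3) and 68.0 nt ± 12.6 (SD, n = 3) gave a log2 change of -0.00083 (SE 0.22, limma adjusted p = 1.0). With 193, 106 and 31 tags in WT, against 218, 288 and 35 in DKO, standard errors over tags were 2.10 to 5.37 nt. Medians were 70, 71 and 47 nt in WT, compared with 69, 72.5 and 52 nt in DKO.

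Cfl1, the gene of the filament-severing protein cofilin 1, was at the other end from Pfn1. Its means were 91.3 and 97.2 nt in WT replicates 1 and 2 and 98.9 and 113.7 nt in DKO replicates 1 and 2, from 15, 5, 18 and 18 tags. WT replicate 3 had no tailed Cfl1 tag (its only one was listed at 0 nt) and DKO replicate 3 had 1, of 46 nt. Cfl1 tails were longer on average than those of Actb, Arhgdib, Coro1a, Rac2 and Tmsb4x in 4 of 5 libraries each, the exception being the library with 1 tag. They were longer than those of Tmsb10 in 3 of 5.

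Coro1a encodes coronin 1A, a filament-binding protein needed for the survival of naive T cells. It had means of 84.8, 87.5 and 48.4 nt in WT, against 74.1, 83.4 and 66.0 nt in DKO. DKO values lay below WT within numbers 1 and 2 (difference -7.41 nt) and above within number 3 (17.6 nt). The log2 change over all 6 libraries was 0.06 (SE 0.24, limma adjusted p = 0.86), from 11 to 36 tags per library.

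**Figure D2:**
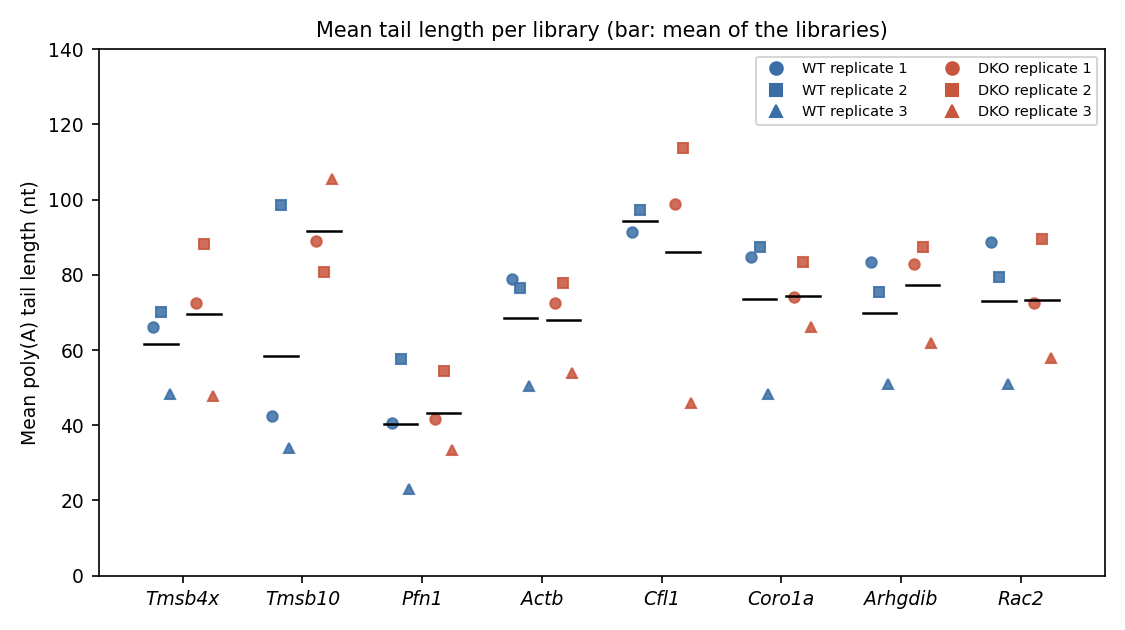
Mean poly(A) tail length (nt, y axis) of each transcript in each library, with WT in blue and DKO in red, symbols for the replicate number and a black bar for the mean of the libraries with a tailed tag. Pfn1 lies lowest in each library, between 23.0 and 57.5 nt, and replicate 3 (triangles) is the lowest of its genotype for Tmsb4x, Pfn1, Actb, Coro1a, Arhgdib and Rac2.

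In replicates 1 and 2 of both genotypes, the order of mean tails was Cfl1 (100.3 nt ± 9.52, SD over 4 libraries), Rac2 (82.6 ± 8.07), Coro1a (82.5 ± 5.85), Arhgdib (82.3 ± 5.0), Tmsb10 (77.7 ± 24.6), Actb (76.4 ± 2.69), Tmsb4x (74.3 ± 9.67) and Pfn1 (48.6 ± 8.69). The steps from Cfl1 to Rac2 (17.7 nt ± 10.7) and from Tmsb4x to Pfn1 (25.7 nt ± 9.36) exceeded the spread of the paired difference and held in 4 of 4 libraries. The other 5 steps were smaller than their spread.

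The fit covered the 44 gene IDs that reached 10 tailed tags in each library. There, 4 of these transcripts (Actb, Arhgdib, Coro1a and Tmsb4x) could be tested and 0 passed an adjusted p of 0.05. The background was 0% (0 of 44 IDs called by limma, with 2 at an unadjusted p under 0.05, neither of them among the 4). Of the 4, 3 had a fitted change towards longer tails in DKO, beside 93.2% of all 44 IDs, and the median log2 change was 0.10 in both sets. All DKO libraries lay above all WT libraries in 6.82% of the 44 and in none of the 4. After each library was centred on its median over the 44 IDs, the median change moved to -0.06, 11 of the 44 were higher in DKO, and among the 4 only Arhgdib stayed above 0. Without WT replicate 3, the fitted log2 changes of all 4 were below 0, the lowest for Coro1a at -0.22, and Actb had -0.21. In that fit 28 of the 46 IDs tested were lower in DKO, with a median of -0.026.

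The place of a transcript among the other IDs shifted between libraries. Arhgdib was longer than 65.9%, 54.5% and 40.9% of the 44 IDs in WT and than 84.1%, 65.9% and 29.5% in DKO. Tmsb4x was longer than 25%, 40.9% and 22.7% in WT and than 43.2%, 68.2% and 6.82% in DKO, so that it ranged from near the bottom to the upper part of the same set. The 2 other IDs whose 6 mean tails were closest to the average profile of the 4 transcripts were ENSMUSG00000071654.5 and ENSMUSG00000032412.8, at root mean square distances of 0.12 and 0.14 log2 units among 40 compared. They are a description over 6 libraries that share the step between the replicate numbers.

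Short tails, under 30 nt and so near the span that a single poly(A)-binding protein covers, were where the genotypes separated for Tmsb4x and Arhgdib. Of Tmsb4x tails, 24.3%, 25% and 20% were under 30 nt in WT, compared with 10.2%, 8.55% and 9.52% in DKO. Every DKO library was below every WT library, which was so for 29.5% of the 44 IDs, and the replicates numbered 3 sat with their genotype. The group means were 23.1% ± 2.70 (SD, n = 3) and 9.41% ± 0.811 (SD, n = 3), with differences of -15.3 percentage points within numbers 1 and 2 and -10.5 within number 3. Single libraries were less precise than the group SDs might show: the 95% exact (Clopper-Pearson) interval, which covers counting error only, was 14.8% to 36.0% in WT replicate 1, from 17 of 70 tags, and 1.17% to 30.4% in DKO replicate 3, from 2 of 21.

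Arhgdib showed the same order at a lower level. Its shares under 30 nt were 6.72%, 8.75% and 15.9% in WT, against 3.05%, 2.95% and 2.13% in DKO, or 10.5% ± 4.83 (SD, n = 3) against 2.71% ± 0.505 (SD, n = 3). The genotypes did not overlap, and the largest WT share was that of replicate 3. The exact intervals were 4.87% to 9.01% and 5.89% to 12.4% in replicates 1 and 2 of WT and 1.75% to 4.90% and 1.66% to 4.81% in those of DKO. Those of the replicates numbered 1 met, and those of the replicates numbered 2 did not.

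Actb did not share this order. Its shares under 30 nt were 8.29%, 2.83% and 29% in WT, compared with 5.50%, 9.38% and 14.3% in DKO, with a difference of 1.88 percentage points within numbers 1 and 2 and of -14.7 within number 3. Coro1a had 4.35%, 6.25% and 35.0% in WT, against 0%, 2.78% and 18.2% in DKO, lower in DKO in 3 of 3 pairs but with overlapping groups and with 0 to 7 short tails per library. The 0% comes from 36 tags, for which the exact interval reaches 9.74%. Pfn1 was also lower in DKO in 3 of 3 pairs, from 6 short tails of 19 in WT, compared with 7 of 40 in DKO. By number, the pairs were 3 of 8 against 4 of 19, 1 of 8 against 2 of 19, and 2 of 3 against 1 of 2. Their order therefore rests on very few tags. Tmsb10 had 2 short tails of 12 in WT and 1 of 28 in DKO. Cfl1 had 0 of 20 in WT and 1 of 37 in DKO, and Rac2 1 of 50 and 2 of 57. Within numbers 1 and 2, Rac2 was higher in DKO, at 3.85% and 3.45%, against 0% and 0% in WT.

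**Figure D3:**
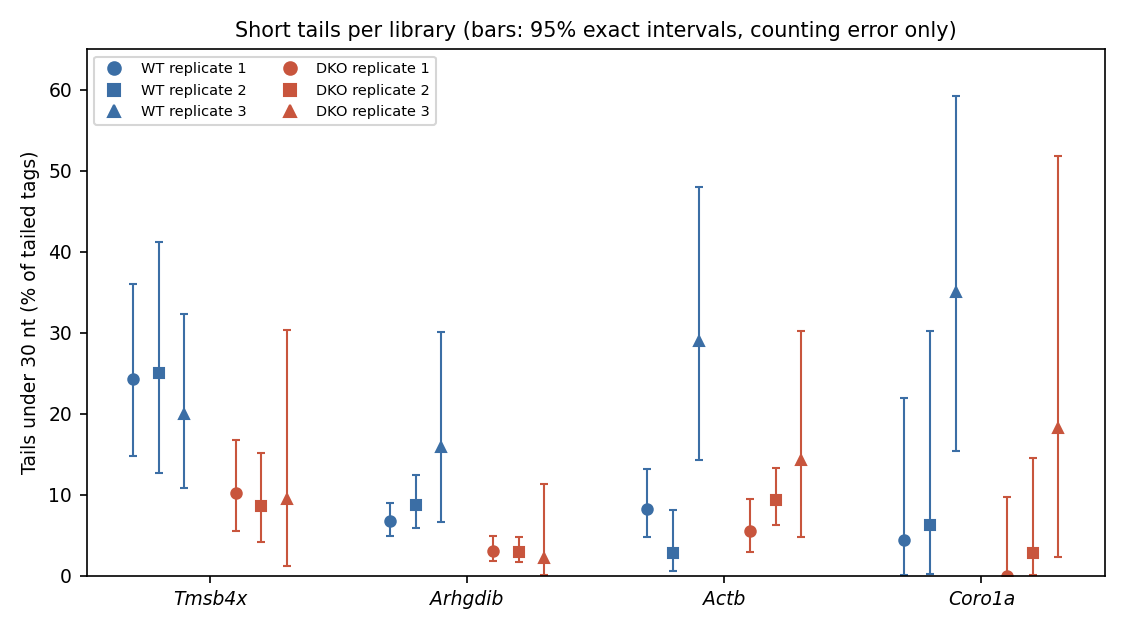
Share of tailed tags with a tail under 30 nt (%, y axis) for Tmsb4x, Arhgdib, Actb and Coro1a in each library, with WT in blue, DKO in red and 95% exact intervals as bars. For Tmsb4x and Arhgdib each DKO point lies below each WT point, whereas for Actb and Coro1a the genotypes overlap and WT replicate 3 is highest.

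The odds of a tail under 30 nt were then tested over the same 44 IDs, a test added after these shares had been seen. In limma on the log2 odds (with 0.5 added to both counts), Tmsb4x had a log2 odds ratio (DKO over WT) of -1.44 (SE 0.46, adjusted p = 0.14) and Arhgdib of -1.81 (SE 0.55, adjusted p = 0.14), so neither passed. Weights were then taken from the counts of short and of other tags, so that libraries with few of either counted less. With these weights, the ratios were -1.48 (SE 0.27, limma adjusted p = 0.010) and -1.47 (SE 0.33, limma adjusted p = 0.025), and both passed. The adjusted p over all alternatives ran from 0.010 to 0.96 for Tmsb4x and from 0.025 to 0.75 for Arhgdib. Actb had -0.07 (SE 0.98, limma adjusted p = 0.97) and Coro1a -1.52 (SE 1.26, limma adjusted p = 0.51). The value of Coro1a was -0.54 without DKO replicate 1, -0.59 without WT replicate 3 and -2.67 without DKO replicate 3.

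The pattern was common to other transcripts. Shares under 30 nt were lower in all DKO libraries than in all WT libraries in 29.5% of the 44 IDs, and in 2 of these 4 (Tmsb4x and Arhgdib), and the fitted odds were lower in DKO in 86.4%, against 4 of 4. limma called 2.27% of the IDs without weights, and 7 of 44 (15.9%) with weights, all 7 lower in DKO. With the 4 transcripts weighted equally, the share under 30 nt was 10.9%, 10.7% and 25% in WT, against 4.68%, 5.91% and 11.0% in DKO. Over the 44 IDs weighted equally it was 10.4%, 9.05% and 16.4% in WT, compared with 7.61%, 6.62% and 8.48% in DKO.

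The mean tail of the 4, weighted equally, was 68.4 nt ± 16.3 (SD, n = 3) in WT, against 72.3 nt ± 13.7 (SD, n = 3) in DKO. The difference of 3.93 nt lay well inside the spread between libraries, as did that of 5.23 nt over the 44 IDs. It was -5.51 nt without WT replicate 3 and -1.99 nt without DKO replicate 2.

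Tags listed without a tail were more frequent for Actb than for the other well-sampled transcripts here. A tail under 5 nt, or no length, was listed for 5.39%, 6.19% and 6.06% of Actb tags in WT, compared with 3.54%, 6.19% and 7.89% in DKO. These shares do not differ beyond the spread (5.88% ± 0.430 and 5.87% ± 2.19, SD, n = 3). Of the 50 such tags among 921, 39 were listed at 0 nt and the rest with no length. The share of 5.43% (95% exact interval 4.06% to 7.09%) lay above the 0.629% (0.335% to 1.07%) of Arhgdib, 0.909% of Tmsb4x and 1.39% of Coro1a, and Rac2 had 0 of 107, for which the exact interval reaches 3.39%. Of the 13 such Arhgdib tags, 10 had no length. At 0 nt alone the shares were 4.23% for Actb and 0.145% for Arhgdib. Pfn1, Cfl1 and Tmsb10, with fewer tags, had 4 of 63 (6.35%), 2 of 59 (3.39%) and 0 of 40. Among the 109 IDs with at least 100 linked tags, whose median was 0.787%, 18 had a higher share than Actb. In the replicates numbered 3 the share over all linked tags was 28.0% and 24.2%, far above the 6.06% and 7.89% of Actb. In replicates 1 and 2 it was 7.27% and 8.04% in WT, against 7.01% and 5.99% in DKO. Actb lay below these shares except in DKO replicate 2.

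Added uridines were rare on these transcripts, with 54 among 3767 tailed tags. In tails of 30 nt and above, a U was listed for 1.26%, 0.846% and 0.800% of their tags in WT, against 0.963%, 0.925% and 0% in DKO, the last from 110 tags with an interval up to 3.30%. The other gene-linked tags of the same libraries had 1.70%, 1.61% and 1.72% in WT, compared with 1.81%, 1.75% and 1.57% in DKO, so that the actin-related transcripts were lower in 6 of 6 libraries. This difference was not tested. In tails under 30 nt the shares were 20 of 276, or 7.25% (95% exact interval 4.48% to 11.0%), against 9.55% (8.94% to 10.2%) for other tags. Here the actin-related transcripts were lower in 4 libraries and higher in WT replicate 3 (10.3% against 9.29%) and DKO replicate 2 (10.3% against 9.15%).

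Arhgdib held 28 of the 54 uridylated tails and Actb 16. Actb had 2, 0 and 0 in WT, against 3, 11 and 0 in DKO, and the 11 of 288 in DKO replicate 2 made up 3.82% of its tailed tags. Coro1a had 3 in WT replicate 3, each on a tail under 30 nt, and none in the other 5 libraries. Pfn1 and Tmsb10 had 0 among 59 and 40 tailed tags, with intervals up to 6.06% and 8.81%.

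Tag abundance was expressed per 10000 tailed, gene-linked tags of the library. Because each tag is 1 transcript end, this scale does not grow with transcript length, but fragments may be recovered unequally, and levels are compared here within a gene only. In bulk samples, fewer cells of a type and less RNA per cell cannot be told apart.

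Arhgdib was at 360, 281 and 61.3 in WT, against 254, 212 and 119 in DKO. Within numbers 1 and 2 both DKO values lay below both WT values, and within number 3 the DKO value was the higher. The log2 change in edgeR's quasi-likelihood test was -0.31 (SE 0.53, adjusted p = 0.88). In numbers 1 and 2 alone it was -0.64 (SE 0.24, edgeR adjusted p = 0.052), where 12.4% of 241 IDs were called. Without WT replicate 3 it was -0.88 (SE 0.30, edgeR adjusted p = 0.099), and without WT replicate 1 it was 0.19.

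Actb was at 114, 93.1 and 43.2 in WT, against 105, 120 and 88.8 in DKO, with a log2 change of 0.28 (SE 0.43, edgeR adjusted p = 0.88). The lowest value was that of WT replicate 3, without which the change was -0.15. Tmsb4x was at 41.3, 35.1 and 83.6 in WT, against 61.9, 48.7 and 53.3 in DKO. Here WT replicate 3 was the highest library, so that DKO was higher within numbers 1 and 2 and lower within number 3. The fitted log2 change was -0.01 (SE 0.45, edgeR adjusted p = 0.99), and 0.33 without WT replicate 3.

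Coro1a was at 13.6, 14.1 and 27.9 in WT, against 17.4, 15 and 27.9 in DKO, so that replicate 3 stood above the others in both genotypes (log2 change 0.02, SE 0.50, edgeR adjusted p = 0.99). Rac2 went the other way, with 18.3, 14.1 and 4.18 in WT, compared with 12.6, 12.1 and 5.07 in DKO (log2 change -0.31, SE 0.53, edgeR adjusted p = 0.88). Cfl1 was at 8.85, 4.39 and 0 in WT, where 0 tags allow up to 4.18 per 10000, and at 8.71, 7.49 and 2.54 in DKO (log2 change 0.39, SE 0.62, edgeR adjusted p = 0.88).

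Pfn1 and Tmsb10 did not pass the filter on low counts. Pfn1 was at 4.72, 7.03 and 4.18 in WT, against 9.19, 7.91 and 5.07 in DKO. Tmsb10 was at 2.36, 4.39 and 4.18 in WT, against 5.32, 6.24 and 5.07 in DKO. The groups did not overlap, as in 12.4% of the 442 IDs with a tailed tag in every library, and the value of DKO replicate 3 comes from 2 tags. Without the filter, Tmsb10 had a log2 change of 0.75 (SE 0.73, edgeR adjusted p = 0.64).

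**Figure D4:**
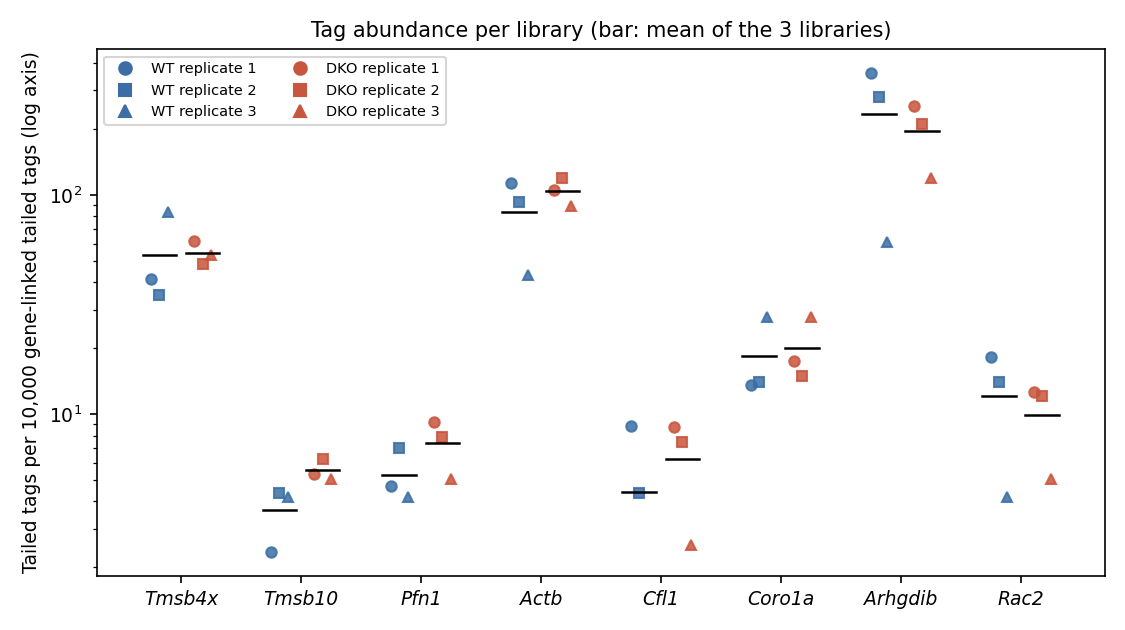
Tailed tags per 10000 tailed, gene-linked tags (log y axis) for each transcript and library, with WT in blue, DKO in red, symbols for the replicate number and a black bar for the mean of 3 libraries; the value of 0 for Cfl1 in WT replicate 3 cannot be drawn on a log axis. Replicate 3 (triangles) is lowest in both genotypes for Arhgdib, Actb, Rac2 and Pfn1 and highest in both for Coro1a. It is also lowest in both for Cfl1, counting the value of 0.

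Of the 6 transcripts tested for tag count, 0 passed, beside 0% of all 170 IDs (0 called by edgeR and 0 by DESeq2, with 13 and 8 at an unadjusted p under 0.05, none of them among the 6). The IDs at an unadjusted p under 0.05 in edgeR were 7.65%. On TMM-scaled counts all DKO libraries lay above all WT libraries in 8.82% of the IDs and below them in 7.65%, and in neither case was one of the 6 among them. Fitted changes were higher in DKO for 3 and lower for 3, against 45.9% higher over the 170 IDs. A replicate block in edgeR gave 3 calls among the 170 IDs (1.76%), and none was one of these transcripts. With library totals in place of TMM scaling the median over the 170 IDs moved from -0.05 to 0.24 and the split from 78 higher and 92 lower to 117 and 53, and the change of Tmsb4x turned to 0.29.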

How the data were processed

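mTAIL-seq tags of 6 libraries were analysed, 3 WT and 3 DKO. The authors deposited, per library, mapped tags with a tail length in nt and a count of reads per tag, and a table linking tags to Ensembl IDs. GSNAP, bedtools and the builds mm10 and GRCm38 appear in the submitters' processing notes. No source used here names the tail caller. The authors' deposited gene tables gave the same tailed tag count, and a geometric mean within 1e-06 nt of the recomputed one, for 47 of 47 library values of these transcripts.

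The 9 genes, the lists and the tests were chosen with earlier results of these data known. All 9 were to be named. The lists of other actin genes and of cell type markers are not analysed here, because 0 of 49997 rows of the reference gene table carry an Ensembl ID.

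The tail length after mapping was used, and tags with 5 nt or more were called tailed. Intervals are 95% exact ones, and the limit for a count of 0 is 3 counts. log2 mean tails were tested with limma 3.58.1 (IDs reaching 10 tailed tags in each library), tag counts with edgeR 4.0.16 (TMM, filterByExpr, quasi-likelihood) and DESeq2 1.42.0, with Benjamini-Hochberg adjustment over all IDs tested and a threshold of 0.05. Software was R 4.3.3, SciPy 1.17.1, pandas 2.3.3 and Python 3.11.15. The fits were run on simulated data. There the short tails varied between the libraries of a group by counting error only. The short-tail runs therefore do not measure how the fit handles the spread between libraries seen here.

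Replicate numbers were taken to pair the libraries. Deviations from the group means correlated between same-numbered libraries (r = 0.25, 0.40 and 0.52 for tails, 0.14, 0.21 and 0.38 for counts). Numbers 1 and 2 also correlated with each other across genotypes (0.11 and 0.33 for tails, 0.29 and 0.38 for counts). For counts, both of these exceeded the same-numbered values of numbers 1 and 2. For tails, 0.33 lay between the same-numbered values and 0.11 lay below them. Deviations cancel out within a group and the replicates numbered 3 stood apart, so these correlations cannot decide whether the numbers pair the libraries. Statements on same-numbered pairs and the replicate block follow the labels only.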

Additional observations from a re-analysis of the deposited data

How the results depend on the processing

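In tail length, Actb, Arhgdib, Coro1a and Tmsb4x passed the threshold under no alternative that tested them, nor did Rac2 in replicates 1 and 2, while Cfl1, Pfn1 and Tmsb10 had too few tags to be tested. In tag count none of the 8 passed under an alternative that tested it. In tails under 30 nt, Tmsb4x and Arhgdib passed with weights from the counts of short and of other tags, and under none of the other alternatives. The number of IDs with a changed tail length was 0 throughout. The number with a changed tag count was 3 with the replicate block, 30 with replicates 1 and 2 only and 0 to 8 on leaving out each library in turn, the 8 being without WT replicate 3. The number with a changed share under 30 nt, 1 at first, was 7 with weights, 0 at under 20 nt, under 40 nt, with at least 20 tags (fewer IDs) and in replicates 1 and 2 only (fewer libraries, and 122 IDs tested in place of 44), and 0 to 1 without single libraries. The replicate block changed no other call.

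Some fitted log2 changes turned sign, none past the threshold, and the cause was not tested. In tail length these were Actb (0.035 as geometric mean, 0.052 as median, 0.12 weighted by reads), Coro1a (-0.13 in replicates 1 and 2, -0.10 after centring each library on its median, -0.0011 weighted by reads) and Tmsb4x (-0.0083 after centring). In tag count they were Coro1a (-0.034 in DESeq2), Tmsb4x (0.29 with library totals, 0.12 without a filter, 0.062 with untailed tags, 0.14 with the replicate block, 0.35 in replicates 1 and 2) and Actb (-0.057 in replicates 1 and 2). In the odds of a tail under 30 nt it was Actb (0.13 at under 20 nt, 0.51 in replicates 1 and 2).

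Leaving out each library in turn gave log2 changes in tail length of -0.21 to 0.16 for Actb, -0.053 to 0.31 for Arhgdib, -0.22 to 0.21 for Coro1a and -0.047 to 0.40 for Tmsb4x. In tag count they were -0.15 to 0.62 for Actb, -0.88 to 0.19 for Arhgdib, -0.093 to 0.43 for Cfl1, -0.31 to 0.29 for Coro1a, -0.72 to 0.15 for Rac2 and -0.33 to 0.33 for Tmsb4x. In the odds of a tail under 30 nt they were -0.92 to 0.90 for Actb, -2.13 to -1.40 for Arhgdib, -2.67 to -0.54 for Coro1a and -1.56 to -1.33 for Tmsb4x. The mean tail of the 4 equally weighted transcripts differed (DKO minus WT) by -5.51 to 11.5 nt, their share under 30 nt by -10.7 to -3.60 percentage points and their share with a U by -1.96 to 0.138 percentage points. Depth limits Cfl1, Pfn1, Rac2 and Tmsb10 to descriptions of tail length.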

Other observations

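Other added bases were fewer still. A G was listed on 8 of 871 tailed Actb tags, 4 in each genotype, and on 7 of 2055 tailed Arhgdib tags, 0 in WT and 7 in DKO (2 in replicate 1 and 5 in replicate 2). Tmsb4x had 1 tag with a G, in DKO, and Coro1a 1 in each genotype. A C was listed on 3 Arhgdib tags, all in DKO, and on 2 Actb tags, both in DKO. It was also listed on 1 tag each of Tmsb4x, Pfn1 and Rac2, all in WT, and on 1 Tmsb10 tag in DKO. These counts are given as values, without a test and without the share over other gene-linked tags.

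The tags of these transcripts held 1.77 to 2.96 reads on average per library, slightly more than the 1.61 to 2.55 over all mapped tags of the same libraries. The plot of cumulative tail lengths also shows that the upper part of the Tmsb4x distribution was absent from DKO replicate 3, where the longest of 21 tails was 70 nt, whereas the other libraries each had tails of 144 nt or longer.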
